A study of Mus musculus with 2 samples.

Results

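A set of 10 genes of the naive and resting T cell state were followed in sorted CD8+ cytotoxic and CD4+ helper T cells of the mouse spleen. They are the transcription factor genes Tcf7, Lef1, Foxo1, Foxo3, Foxp1, Klf2, Klf3, Satb1 and Ets1, and Tob1, a gene of an antiproliferative protein. They were chosen by name, as every non-control probe whose transcript accession belongs to 1 of these genes, and all 10 genes were found, with 16 probes, among 17172 genes that could be named. The cells were wild-type splenocytes of C57B6 mice, collected by cell sorting, and 1 one-colour Agilent array was made from the CD8+ cells and 1 from the CD4+ cells, each from 0.5 ug of RNA. Nothing else separates the groups in the labels, and no source used here gives the antibodies of the sort or the number or age of the mice. With 1 array per cell type there was no replicate spread between samples and no test between the cell types. In such bulk samples, fewer cells that hold a transcript and less of it per cell cannot be told apart.

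A naive T cell circulates without dividing until it meets its antigen, and this resting state is held by transcription factors as well as by the absence of signals. TCF-1 and LEF-1, the products of Tcf7 and Lef1, bind DNA through an HMG box and can recruit beta-catenin or repressors of the TLE family. FOXO factors stay in the nucleus while signalling through PI3K and AKT is low, and FOXO1 there drives homing and survival genes such as Ccr7 and Il7r and the gene of KLF2. KLF2 in turn maintains S1pr1, the receptor by which T cells leave lymphoid organs. FOXP1, SATB1 and ETS1 are further nuclear factors that mature T cells depend on, and TOB1 joins the CCR4-NOT complex that shortens the tails of mRNAs.

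The labels were checked on the genes of the sorted proteins. Cd8a had a processed signal of 49982 on the CD8+ array and 535 on the CD4+ array, a 105.6-fold difference after scaling. Cd4 had 67.1 on the CD8+ array and 307 on the CD4+ array, which was 4.12-fold lower on the CD8+ array. Of the 43379 non-control spots, 58.6% on the CD8+ array and 63.1% on the CD4+ array were well above background. Of 8 further T cell markers 7 had a named probe, and all 7 were measured on both arrays. Among them Lck, the kinase of the T cell receptor, was above the 99th percentile of each array. After scaling, these markers ran from Cd5, 1.79-fold lower on the CD8+ array, to Cd3e, 1.42-fold higher on it. Levels are given as the processed Cy3 intensity, and differences as CD8+ minus CD4+ array on a log2 scale after each array was set to its 75th percentile, so that a positive difference means a higher level in CD8+ cells. The scanner software assigns each spot an error of about 10% of its signal, which gives most differences of single probes an error of 0.20. Differences between different probes of 1 gene had an SD of 0.23 over 3969 genes.

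The main picture was one of near-equal levels. Of the 10 genes, 9 were well above background on both arrays, and their differences ran from -0.32 for Ets1 to 0.23 for Klf2, with a median of 0.07. The median of all 11954 genes measured on both arrays was 0.02, with 5% of genes below -0.84 and 5% above 0.62. None of the 9 factors was at least 1.5-fold higher in CD8+ cells, against 5.5% of all genes, and none was at least 1.5-fold higher in CD4+ cells, against 8.54% of all genes. At 2-fold the shares of all genes were 1.94% higher in CD8+ cells and 3.83% higher in CD4+ cells, and again 0 of the 9 factors were in either. Most genes were near level as well, with quartiles of -0.18 and 0.20 and 94.2% of them within 2-fold. These counts therefore do not set the factors apart. The differences were above 0 for 7 of the 9 factors, against 53.7% of all genes, and below 0 for 2, against 46.3% of all genes. The count above 0 moved with the scaling, being 8 with arrays set to their medians and 4 after loess normalization, so no direction is read from it. Lef1, Tob1 and Klf2 had a positive difference and Ets1 a negative one in each of 13 alternative settings. The other factors were on both sides of 0 in these settings, Satb1 being negative in 1 of them, after loess normalization. For Lef1 and Tob1, with 1 probe each, settings that changed the choice among probes could only return the main value. With no filter on dim probes and with brighter probes alone, Lef1, Tob1, Klf2 and Ets1 all returned their main value. The 13 settings are therefore not 13 separate checks of a sign. Under the 6 that changed background or scaling, Lef1 ran from 0.09 to 0.28 and Tob1 from 0.09 to 0.28. The brightest probe of Klf2 ran from 0.07 to 0.37 there, and that of Ets1 from -0.44 to -0.18.

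**Figure D1:**
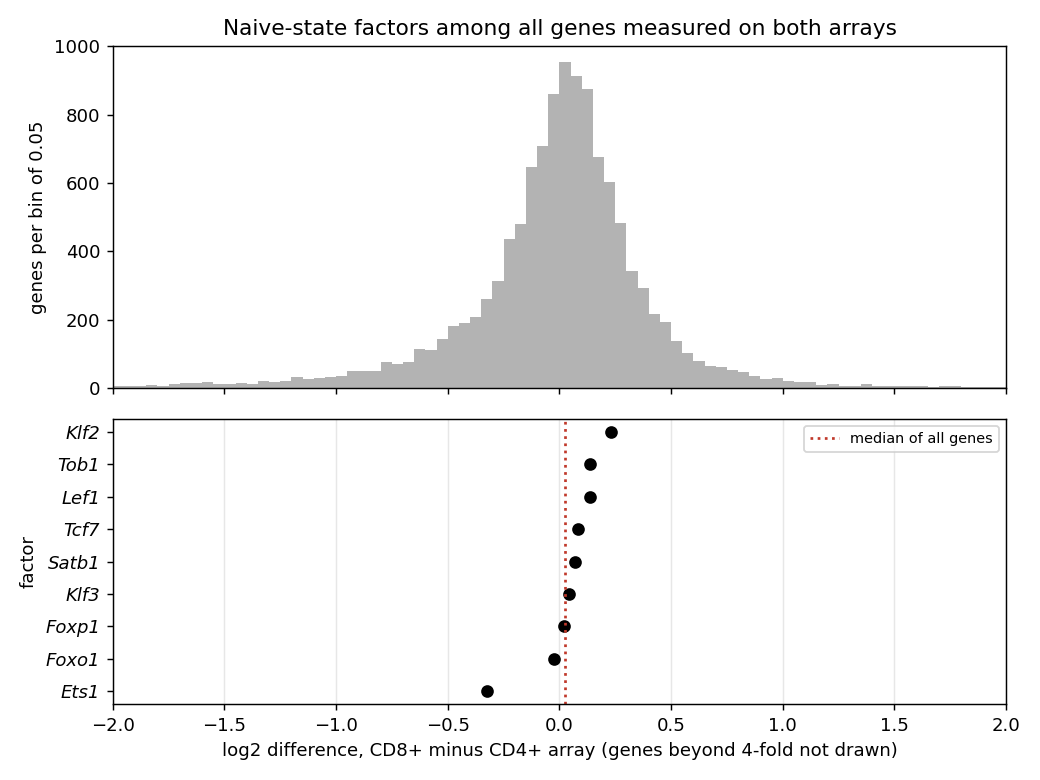
The upper panel counts genes by their log2 difference, CD8+ minus CD4+ array, in bins of 0.05 over genes well above background on both arrays, and the lower panel places the 9 factors on the same axis by the brightest probe of each. All 9 lie between -0.32 and 0.23, inside the bulk of the distribution, with Ets1 the lowest and Klf2 the highest.

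By the brightest probe of each, most of these genes also ranked high among the probes of their arrays. A percentile here is the rank of a gene's brightest probe, by mean level over both arrays, among the 41170 probes of an array. Since brightness also depends on the probe, a percentile describes the array and not amounts of RNA compared between genes. On the CD8+ array the order was Klf2 at percentile 99.5, Ets1 at 98.8, Satb1 at 98.2, Foxo1 at 96.9, Tcf7 at 96.8 and Lef1 at 96.0, then Foxp1 at 84.0, Klf3 at 81.9, Tob1 at 72.8 and Foxo3 at 37.1. On the CD4+ array the same order held, with Klf2 at 99.5, Ets1 at 99.2, Satb1 at 98.2, Foxo1 at 97.1, Tcf7 at 96.7, Lef1 at 95.7, Foxp1 at 84.2, Klf3 at 81.8, Tob1 at 72.0 and Foxo3 at 36.1. Thus 6 of the 10 genes stood above the 95th percentile on both arrays, and 9 stood above the 70th. Above the 95th there were 4 with the mean over probes and 5 with the probe of the smallest difference. The share of all genes past these percentiles by their brightest probe was not counted, so nothing about the group is read from these counts. Foxo1, Tcf7 and Lef1, in the middle of the order by brightest probe, were close neighbours on both arrays. With errors of about 10% of the signal their order is not firm.

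**Figure D2:**
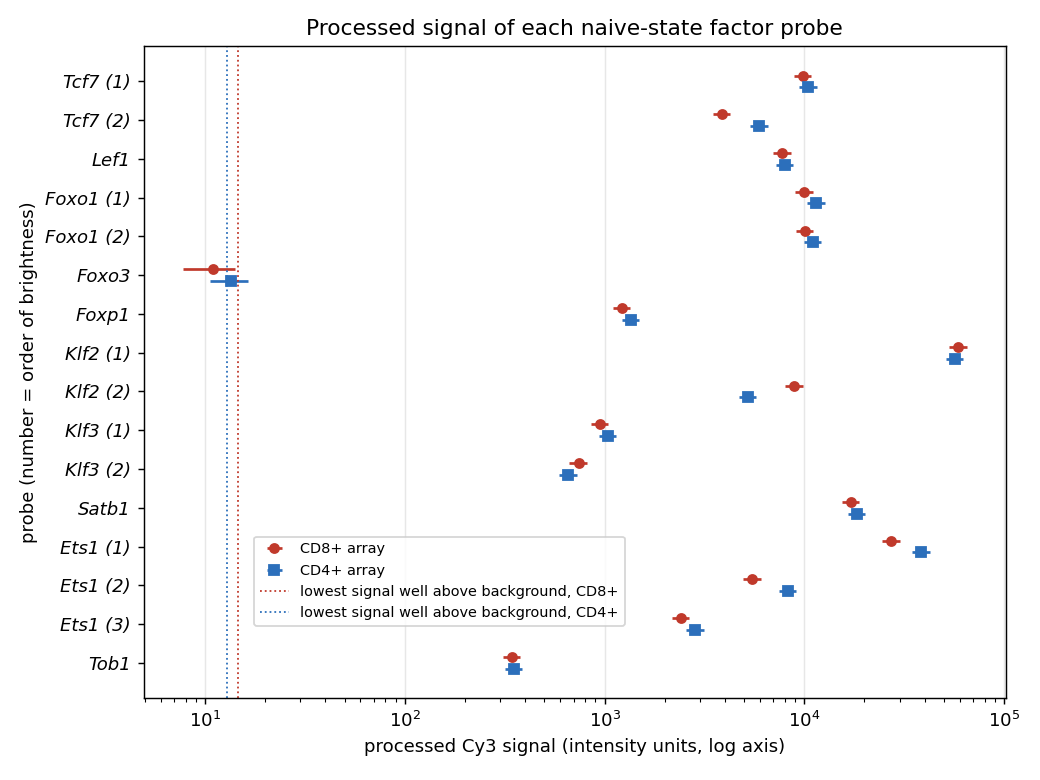
Each row is 1 of the 16 probes, with the processed Cy3 signal on a log axis, circles for the CD8+ array, squares for the CD4+ array and bars for the error that the scanner software assigns. The markers of a row nearly overlap except for the dimmer probes of Klf2 and Tcf7 and the brighter 2 probes of Ets1, and only Foxo3 lies at the dotted lines of the lowest signal well above background.

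Tcf7 and Lef1 encode the T cell members of the TCF/LEF family. The brighter of the 2 Tcf7 probes read 9839 on the CD8+ array and 10487 on the CD4+ array, a difference of 0.08 ± 0.20 (error of the scanner software). The dimmer probe read 3859 on the CD8+ array and 5960 on the CD4+ array, a difference of -0.45 ± 0.20. One probe of Tcf7 was thus level between the arrays and the other 1.37-fold lower in CD8+ cells, and their gap of 0.54 was reached by 9.70% of the 3969 genes with several probes. The sign of each held under the 6 other background and scaling settings, from 0.0044 to 0.23 for the brighter probe and from -0.64 to -0.31 for the dimmer. Which transcripts of Tcf7 each probe reads is not given in the files. Lef1, with a single probe, read 7760 on the CD8+ array and 7979 on the CD4+ array, a difference of 0.14 ± 0.20 that lay within its error.

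Foxo1, the FOXO factor that holds homing and survival genes on in resting T cells, had 2 probes that gave the same answer. The brighter, by mean level over both arrays, read 10017 on the CD8+ array and 11505 on the CD4+ array. The other read 10062 on the CD8+ array and 11010 on the CD4+ array. The differences were -0.02 ± 0.20 and 0.05 ± 0.20, and 77.6% of genes with several probes had probes at least as far apart. Foxo3, the second FOXO gene of the group, was a case apart, since its single probe read 10.9 on the CD8+ array and 13.5 on the CD4+ array. The software classed it as above background in CD4+ cells and not in CD8+ cells, with the lowest signal of that class at 14.7 on the CD8+ array and 12.9 on the CD4+ array, so no fold is given for it. Foxp1, a forkhead factor that restrains the response of naive cells to interleukin 7, read 1219 on the CD8+ array and 1357 on the CD4+ array, a difference of 0.02 ± 0.20.

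**Figure D3:**
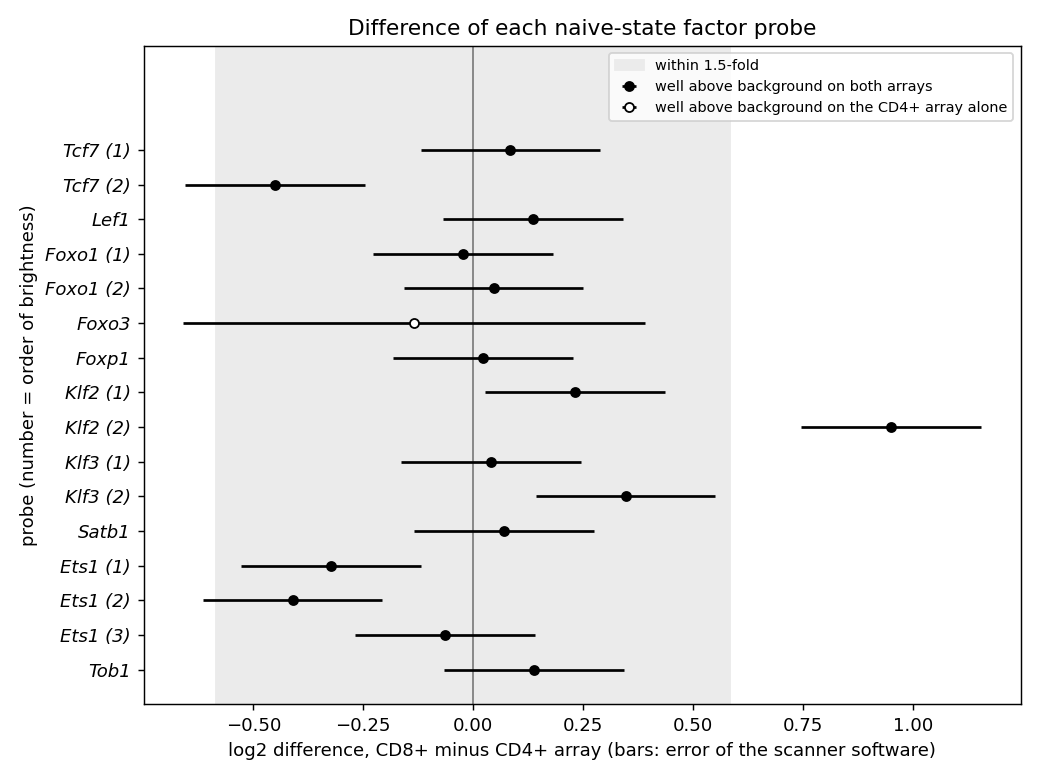
Each row is 1 probe, with its log2 difference between the CD8+ and the CD4+ array and, as bars, the error propagated from the scanner software; the grey band spans 1.5-fold in either direction. The dimmer Klf2 probe at 0.95 alone has its value outside the band, the Ets1 probes all lie below 0 (the third above it with median scaling), and the Klf2 and Klf3 probes all lie above it (the brighter Klf3 probe below it after loess normalization or a percentile over detected probes).

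Klf2 had the largest difference among the 16 probes. KLF2 is a zinc finger factor of quiescence and recirculation, and KLF3 a relative that represses through CtBP proteins. The brighter Klf2 probe read 58999 on the CD8+ array and 56801 on the CD4+ array, a difference of 0.23 ± 0.20. The dimmer read 8905 on the CD8+ array and 5209 on the CD4+ array, which is 1.93-fold higher in CD8+ cells (0.95 ± 0.20), and it stayed between 0.84 and 1.09 under the 6 other background and scaling settings. Both probes were higher in CD8+ cells, but by amounts 0.72 apart, a gap that 4.89% of genes with several probes reached. The brighter probe had a median pixel brightness of 57192 on the CD8+ array and 52899 on the CD4+ array, with the scanner's saturation value at 65527, and it was marked as saturated on neither. Its nearness to that ceiling moves with the smaller difference, and its part in it was not tested. With the mean over both probes, Klf2 had a difference of 0.59 and passed 1.5-fold. Among all 15 probes of the group measured on both arrays, this dimmer probe was the only one at least 1.5-fold higher in CD8+ cells, against 5.39% of all probes, and none was at least 1.5-fold higher in CD4+ cells, against 7.46%.

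Klf3 had the same sign on both of its probes. The brighter read 948 on the CD8+ array and 1041 on the CD4+ array, a difference of 0.04 ± 0.20, and the dimmer read 741 on the CD8+ array and 659 on the CD4+ array, a difference of 0.35 ± 0.20. The brighter one became slightly negative after loess normalization and when only detected probes set the percentile, and the dimmer one stayed between 0.30 and 0.49. Because both probes of Klf2 and both of Klf3 had positive differences, the 250 bases before the annotated start of each gene are shown, from RefSeq on build GRCm38.p6, plus strand, at chr8:72318812-72319061 for Klf2 and chr5:64803271-64803520 for Klf3. Capitals mark each CACCC, the box that KLF proteins bind, on either strand (GGGTG when read here), and in Klf2 also a 10-base match to the MEF2 consensus, the motif of the MEF2 factors.
Klf2: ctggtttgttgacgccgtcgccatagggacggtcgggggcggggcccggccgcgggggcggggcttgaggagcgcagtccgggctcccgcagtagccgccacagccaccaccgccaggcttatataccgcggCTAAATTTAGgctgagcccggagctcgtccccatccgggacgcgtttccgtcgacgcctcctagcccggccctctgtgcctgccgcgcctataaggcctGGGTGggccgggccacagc
Klf3: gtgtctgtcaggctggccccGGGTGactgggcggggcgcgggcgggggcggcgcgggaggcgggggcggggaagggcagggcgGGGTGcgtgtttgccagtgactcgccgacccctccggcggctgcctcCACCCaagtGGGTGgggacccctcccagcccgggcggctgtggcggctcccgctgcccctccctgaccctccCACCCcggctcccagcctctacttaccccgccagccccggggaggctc

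The Klf3 window held 5 such boxes and the Klf2 window 1, and no 2 marked stretches overlap. A CACCC on either strand is common, with 52% of all 32851 windows of the same length holding at least 1, so its presence sets neither gene apart. A MEF2 match like that of Klf2, which lies at bases 118 to 109 before the start, was in 2.92% of those windows and in no factor window but that of Klf2. Windows of 9 of the 10 genes were in the RefSeq table, and the FOXO motif GTAAACA, on either strand, was in none of their 19 windows, against 3.17% of all. The ETS motif CCGGAAGT was in a window of Tcf7 (2.88% of all windows) and the TCF/LEF motif CTTTGAA in a window of Foxp1 (4.46% of all), while its variant CTTTGAT was in none of the 19 (3.21% of all). A match is a description of letters, not a binding site.

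Ets1, the founding ETS factor, which resting T cells express strongly, had the lowest difference of the 9 factors by the brightest probe of each, though the dimmer Tcf7 probe, at -0.45, lay below every Ets1 probe. Its brightest probe read 27251 on the CD8+ array and 38525 on the CD4+ array, a difference of -0.32 ± 0.20, or 1.25-fold lower in CD8+ cells. The second read 5495 on the CD8+ array and 8251 on the CD4+ array (-0.41 ± 0.20), and the third 2411 on the CD8+ array and 2849 on the CD4+ array (-0.06 ± 0.20). All 3 pointed the same way, but the third lay within its error and turned positive when the arrays were set to their medians. Of all named genes measured on both arrays, 16.4% had a difference below that of the brightest Ets1 probe.

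Satb1 and Tob1 completed the group. SATB1 organises chromatin loops in the thymus and in naive cells, and its probe read 17087 on the CD8+ array and 18390 on the CD4+ array, a difference of 0.07 ± 0.20. Tob1 read 343 on the CD8+ array and 353 on the CD4+ array, a difference of 0.14 ± 0.20. Of the 15 probes measured on both arrays, 9 had a difference within their error, and 3 had one beyond 2 times that error: the dimmer probe of Klf2, the dimmer probe of Tcf7 and the second probe of Ets1. The share of all probes within these limits was not counted, so nothing about the group is read from these counts.

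Relatives of these factors in the same families ranged from -0.81 to 0.51. This was wider than the range of the factors, but over more genes and with dimmer probes among them. Of 40 relatives from the TCF/LEF, FOXO, FOXP, KLF, SATB, ETS and TOB/BTG families, 39 had a named probe and 33 were measured on both arrays, meaning well above background on each. The median difference of these was 0.06, with 0 at least 1.5-fold higher in CD8+ cells and 2 at least 1.5-fold higher in CD4+ cells, against 5.5% and 8.54% of all genes, so that these counts do not set the relatives apart. Those in favour of CD4+ cells were Klf4, a KLF that also restrains T cell division, at 310 on the CD8+ array and 615 on the CD4+ array (-0.81), and Spi1, the myeloid and B cell factor PU.1, at 22.6 on the CD8+ array and 40.2 on the CD4+ array (-0.66). Klf13 stood at the other end with 5646 on the CD8+ array and 4476 on the CD4+ array (0.51). Foxp3, the factor of regulatory T cells, which are CD4+, read 5.51 on the CD8+ array, which is not well above background, and 354 on the CD4+ array, so that it was at least 21.3-fold lower in CD8+ cells. Relatives that were well above background on neither array included Foxo6, Foxp2, Klf5 and Erg.

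Of 16 genes that FOXO1 and KLF2 are known to control, 15 were measured on both arrays, with a median difference of 0.09 (negative after quantile or loess normalization), 0 at least 1.5-fold higher in CD8+ cells and 1 in CD4+ cells, against 5.5% and 8.54% of all genes. Ccr7, whose product steers T cells into lymph nodes, read 9960 on the CD8+ array and 8890 on the CD4+ array (0.34). The gene beyond 1.5-fold was Cited2, a transcriptional coregulator, at 957 on the CD8+ array and 1679 on the CD4+ array (-0.63). Genes of the PI3K and AKT signalling that removes FOXO factors from the nucleus had a median of 0.12 over 16 genes. Sgk1, a kinase that phosphorylates FOXO factors, was just past the lower threshold at 1.51-fold higher in CD8+ cells (13076 on the CD8+ array and 9815 on the CD4+ array), while Pik3cd, a catalytic subunit of PI3K, was at 0.50.

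Partners of the factors came next. Among 16 measured genes of TCF/LEF partners and the Wnt pathway the median was 0.17, with 2 at least 1.5-fold higher in CD8+ cells and 0 in CD4+ cells, against 5.5% and 8.54% of all genes. Those 1.5-fold apart were Bcl9l, which links beta-catenin to its coactivators, at 360 on the CD8+ array and 192 on the CD4+ array (1.08), and Axin1, a scaffold of the complex that destroys beta-catenin, at 852 on the CD8+ array and 570 on the CD4+ array (0.76). Tle4, a corepressor of TCF/LEF factors, was at 0.48. Partners of KLF3, ETS1 and SATB1 had a median of 0.06 over 11 genes. Runx3, a factor of the CD8 lineage whose family binds DNA together with ETS1, read 567 on the CD8+ array and 337 on the CD4+ array (0.93), and Runx1 read 134 on the CD8+ array and 310 on the CD4+ array (-1.04), though its 2 probes lay 1.04 apart. Fhl3, a LIM protein that binds KLF3, was 1.96-fold lower in CD8+ cells (57.1 on the CD8+ array and 127 on the CD4+ array). The 12 measured genes of TOB1 and the CCR4-NOT complex were the most even, with a median of 0.07 and a range from -0.11 to 0.32, led by the poly(A)-binding protein gene Pabpc1 (0.32), Cnot8 (0.20) and Cnot6 (0.14).

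Other regulators of quiescence had a median of -0.02 over 13 genes, which was positive with arrays set to their medians and with no filter on dim probes. Cdkn2c, an inhibitor of the kinases CDK4 and CDK6, was 1.66-fold lower in CD8+ cells, at 680 on the CD8+ array and 1275 on the CD4+ array. Foxn3, a forkhead repressor, was at -0.42 and Vsir, the checkpoint receptor VISTA, at 0.36. Naive T cell genes had a median of 0.34 over 11 genes, with 3 at least 1.5-fold higher in CD8+ cells and 0 in CD4+ cells, where all genes had 5.5% and 8.54%. Dapl1, a marker of naive T cells, was at 14108 on the CD8+ array and 8910 on the CD4+ array (0.84), and Rapgef4, an exchange factor of RAP GTPases, at 84.5 on the CD8+ array and 54.2 on the CD4+ array (0.82). Ly6c1 was 3.72-fold higher in CD8+ cells, but Ly6c2 is nearly identical, and which of these genes its probe reads was not tested. With normexp background correction the median of the naive T cell genes was 0.18.

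**Figure D4:**
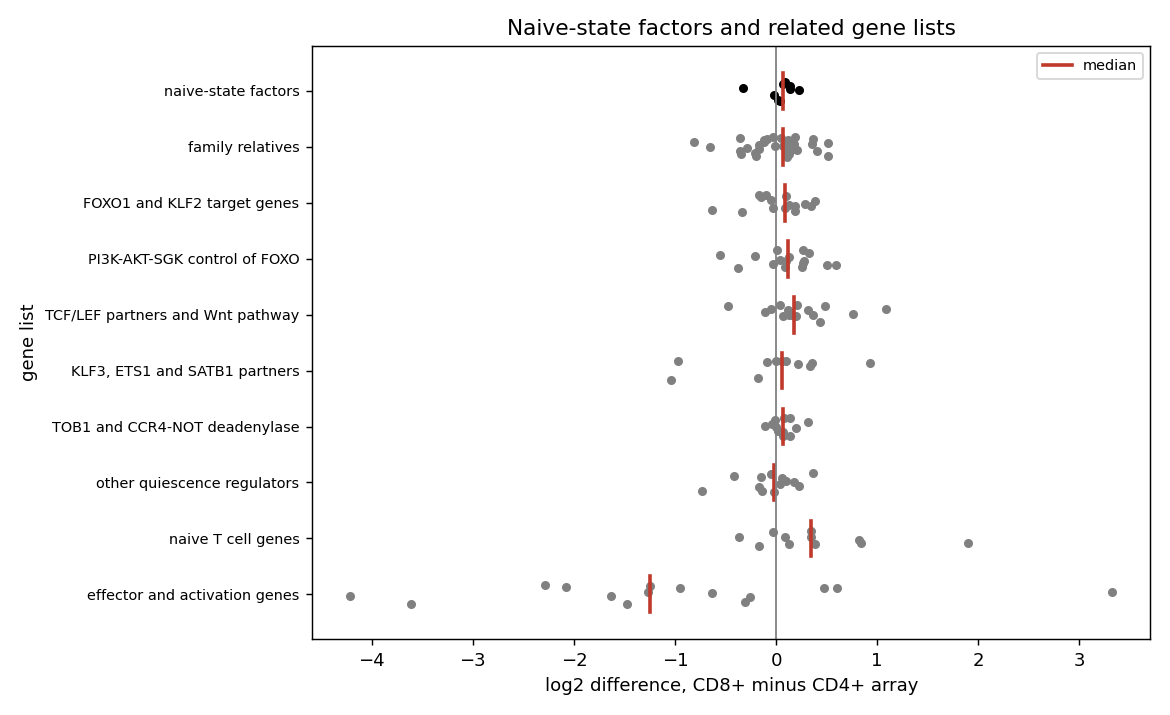
Each point is a gene well above background on both arrays, placed by its log2 difference between the CD8+ and the CD4+ array, with 1 row per list and a bar at the median. The 9 naive-state factors in the top row span -0.32 to 0.23, while the effector and activation genes in the bottom row span -4.21 to 3.33 around a median of -1.25.

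Effector and activation genes, which the resting state is known to keep low, spread far more widely than the factors themselves. Of 15 genes measured on both arrays, 2 were at least 1.5-fold higher in CD8+ cells, against 5.5% of all genes, and 10 in CD4+ cells, against 8.54% of all genes. Their median was -1.25, which was -0.30 with brighter probes alone. Klrg1, an inhibitory receptor of effector cells, read 35.2 on the CD8+ array and 737 on the CD4+ array, and S100a4, a calcium-binding protein gene of memory cells, 3141 on the CD8+ array and 43245 on the CD4+ array. Eomes, a T-box factor of cytotoxic and memory cells, went the other way with 1000 on the CD8+ array and 113 on the CD4+ array. The arrays were also apart in marker genes of other cells, where of all genes measured on both arrays 53.7% were above 0 and 46.3% below. The sums given here are of unscaled signals over every named gene of a list, not only the genes counted. The CD4+ array was the brighter, with a 75th percentile of 508 against 450 on the CD8+ array. Plasma cell markers were lower in CD8+ cells for 6 of 6 genes, with summed signals of 2272 on the CD8+ array and 3950 on the CD4+ array. That list shares Prdm1 and Irf4 with the effector genes. Dendritic cell markers were lower for 5 of 6, with sums of 16583 on the CD8+ array and 23662 on the CD4+ array. These sums were mostly Bst2 (-0.24), at 15528 on the CD8+ array and 20694 on the CD4+ array. Markers of monocytes, macrophages and granulocytes were lower for 6 of 8, with sums of 14353 on the CD8+ array and 19092 on the CD4+ array. The furthest below 0 were Lyz2 (-2.17) and Itgam (-1.64), while S100a8 (-0.03) and C1qa (-0.01) were nearly level. Csf1r (0.05) and S100a9 (0.27) were higher in CD8+ cells. The median of this list was -0.10, and 0.05 with arrays set to their medians. NK cell markers were split, 3 of 6 lower and 3 higher in CD8+ cells. Their sums of 4357 on the CD8+ array and 10844 on the CD4+ array were mostly Tyrobp, at 3997 on the CD8+ array and 10166 on the CD4+ array, and their median of -0.36 was 0.44 with no filter on dim probes. Platelet and erythroid markers were higher in CD8+ cells for 3 of 5, with sums of 2202 on the CD8+ array and 2872 on the CD4+ array. These sums were mostly Hba-a1, at 1847 on the CD8+ array and 2578 on the CD4+ array. B cell markers were higher in CD8+ cells for 9 of 9 genes, with sums of 13784 on the CD8+ array and 10094 on the CD4+ array. These sums were mostly Cd79b, at 9159 on the CD8+ array and 5789 on the CD4+ array. The median difference of the B cell markers, 0.54, was larger than the difference of any naive-state factor by its brightest probe. B cells are known to express Foxo1, Foxp1, Klf2 and Ets1 as well. The part of these other cells in the differences of the factors and lists was not tested.

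Over all genes measured on both arrays, 658 were at least 1.5-fold higher in CD8+ cells and 1021 in CD4+ cells, so that 39.2% of these lay on the CD8+ side. With each array set to its median the counts were 1096 for CD8+ and 754 for CD4+ cells, or 59.2%, because that scaling moved the median of all genes by 0.14, close to the size of the differences of Lef1 and Tob1.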

How the data were processed

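One array per cell type was read from the deposited scanner files. Their processed intensity is, per the file headers, the Cy3 signal from Feature Extraction 10.1.1.1 (version 9.1 per the submitters' processing notes) and is not scaled between arrays. The 0 or 1 flags for background, saturation and outliers are also as deposited. The authors' series table holds an intensity equal to the spot's median pixel brightness at all 45018 spots of each array.

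From these, log2 of the processed signal minus each array's 75th percentile was computed. Control spots and outlier spots (92 on the CD8+ array and 99 on the CD4+ array) were left out, and saturated spots were kept. Of 41170 probes, 24832 (60.3%) were named by RefSeq accession, on a table of GRCm38.p6 used for names. A gene takes its brightest probe well above background on both arrays, by mean log2 level over both. No test was made, and precision is limited by having 1 array per group. The factors and the lists (9 of related genes, 7 of markers) were chosen with earlier results of these data known. Named in each related list are the 3 genes with the largest difference and any gene of 1 array with a bound of at least 2-fold, and a few of them are not reported here. Alternatives changed background correction, scaling, probe choice and filters. The planned normexp correction on mean signals used the median signal, since the files hold no mean signal column. The computation was tested on simulated data. Python 3.11.15, pandas 2.3.3, R 4.3.3 and limma 3.58.1 (normexp, offset 50) were used.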

Additional observations from a re-analysis of the deposited data

How the results depend on the processing

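Of 751 values recomputed under 13 alternatives (1, the probe with the largest difference, chosen after seeing the data), 672 stayed within their technical spread or within 1.5 times a count. Some of these could not move, such as factors with 1 probe when the choice of probe changed. No difference of at least 1.5-fold changed sign, but only the medians of the effector, plasma cell and dendritic cell lists were that large. This check therefore does not cover the factors. With the mean over probes Tcf7 was at -0.18 and Klf2 at 0.59, so 1 factor passed 1.5-fold in CD8+ cells. With the probe of the largest difference Tcf7 was at -0.45, Klf2 at 0.95 and Klf3 at 0.35, again 1 factor passed, and 3 factors stood above the 95th percentile on both arrays. With the smallest, Ets1 was at -0.064. Factors above and below 0 numbered 4 and 5 after loess normalization, 8 and 1 with median scaling, and 5 and 4 with the percentile over detected probes. The median of effector and activation genes was -0.90 under normexp, -1.06 on the series values, -0.88 with the mean over probes, -0.81 with the smallest difference and -0.30 with brighter probes alone, and that of naive T cell genes was 0.18 with normexp. Over all genes, those 1.5-fold higher in CD8+ and in CD4+ cells numbered 419 and 599 with normexp, 1096 and 754 with median scaling, 1332 and 2414 with no filter, and 297 and 338 with brighter probes. Those 2-fold apart numbered 122 and 219 under normexp, 140 and 268 on the series values, 616 and 1276 with no filter, and 102 and 133 with brighter probes, where fewer genes were counted. At 2-fold the CD8+ share was 33.6%, and 46.6% with median scaling. For the rest, the cause was not tested. No paired analysis was possible because each cell type has 1 array. The signal of Foxo3, near background, limits any statement on it.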
